A study of Homo sapiens with 20 samples.

Results

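The regions described here are the open chromatin regions that list a single gene and lie on chromosomes 1, 2, 3, 4, 7, 9, 10, 11, 12, 14 or 16 to 22. ATACseq cuts accessible DNA with a transposase, so the signal of a region rises with how open its chromatin is. Of the 8286 regions in the deposited files, 2417 met this rule, and they list 1811 genes. In RNAseq the median gene of each of these 17 chromosomes differed little between the genotypes, with median log2 differences of -0.10 to 0.08 in DMSO. HL60, an established human AML line of promyelocyte type, was used as HK3-null cells, in which the hexokinase gene HK3 was targeted with Cas9, and as Cas9 control cells, which express Cas9 without that knockout. Both were kept for 36 h in 1 µM ATRA, a retinoid that drives HL60 towards neutrophils, or in 0.01% DMSO, its diluent. ATACseq had 2 replicates in each of the 4 groups (8 libraries) and RNAseq 3 replicates (12 libraries). The titles of all HK3-null libraries share the name KO-2G and the study made its knockouts as clonal lines, so these libraries may come from 1 clone. A difference between genotypes therefore cannot be told apart from a difference between lines. The study calls the replicates biological without saying how they were separated, and p values measure the spread between these samples.

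Accessible regions are mostly promoters, where transcription starts, and enhancers, which lie in introns or between genes and are bound by transcription factors. In myeloid cells PU.1 and C/EBP factors open many enhancers, AP-1 factors bind at enhancers that respond to stress and growth signals, and retinoids act through receptors that bind pairs of short half-sites in DNA. A gene can have several such regions, and its RNA need not follow each of them.

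The sequences below show regions on which the results turn, as the central 300 bases of the region in GRCh38/hg38, plus strand, with the matches of a motif in capitals. They were chosen after the values were seen, and their positions may be off by 1 base because the files do not say whether starts count from 0 or from 1. The first set holds an AP-1 motif (TGANTCA, the same on both strands) in introns of genes whose region had more signal in HK3-null cells: PECAM1 at chr17:64331972-64332271 and TNS3 at chr7:47475179-47475478.
PECAM1: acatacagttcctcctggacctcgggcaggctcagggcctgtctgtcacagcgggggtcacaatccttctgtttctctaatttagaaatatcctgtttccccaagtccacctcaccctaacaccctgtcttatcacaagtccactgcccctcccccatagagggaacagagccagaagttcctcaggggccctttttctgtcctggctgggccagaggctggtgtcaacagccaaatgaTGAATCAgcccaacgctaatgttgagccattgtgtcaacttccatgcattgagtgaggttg
TNS3: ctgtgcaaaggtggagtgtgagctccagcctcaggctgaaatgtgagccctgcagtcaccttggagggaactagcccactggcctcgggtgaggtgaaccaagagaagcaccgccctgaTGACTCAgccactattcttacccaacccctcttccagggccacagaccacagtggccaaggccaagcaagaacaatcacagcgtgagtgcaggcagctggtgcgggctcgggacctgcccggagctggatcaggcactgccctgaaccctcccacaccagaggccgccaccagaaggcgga
The next holds 3 AP-1 motifs in an intron of PI4KB (chr1:151311617-151311916) and lost signal with ATRA in Cas9 control cells.
PI4KB: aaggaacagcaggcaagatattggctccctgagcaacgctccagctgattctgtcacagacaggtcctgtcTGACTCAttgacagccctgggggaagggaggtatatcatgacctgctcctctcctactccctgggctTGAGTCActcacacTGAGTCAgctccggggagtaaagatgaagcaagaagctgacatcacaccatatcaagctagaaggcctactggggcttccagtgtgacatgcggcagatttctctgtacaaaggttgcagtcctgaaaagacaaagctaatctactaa
Introns of GALNT14 (chr2:31032601-31032900), SLC24A3 (chr20:19308208-19308507) and PKP1 (chr1:201311327-201311626) show regions with less signal in HK3-null cells, and the capitals mark the E-box CAGCTG, which also reads the same on both strands.
GALNT14: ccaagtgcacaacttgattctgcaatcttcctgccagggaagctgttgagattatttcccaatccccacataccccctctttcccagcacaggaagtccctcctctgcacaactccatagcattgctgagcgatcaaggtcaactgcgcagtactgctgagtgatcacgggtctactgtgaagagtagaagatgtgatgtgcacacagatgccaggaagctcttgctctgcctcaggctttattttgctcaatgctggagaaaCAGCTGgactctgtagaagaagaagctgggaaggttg
SLC24A3: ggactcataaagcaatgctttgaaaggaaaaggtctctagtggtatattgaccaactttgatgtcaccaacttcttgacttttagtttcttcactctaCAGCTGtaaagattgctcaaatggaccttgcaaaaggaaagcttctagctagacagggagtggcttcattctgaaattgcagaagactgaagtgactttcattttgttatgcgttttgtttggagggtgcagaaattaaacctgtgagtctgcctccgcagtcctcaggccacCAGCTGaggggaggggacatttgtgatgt
PKP1: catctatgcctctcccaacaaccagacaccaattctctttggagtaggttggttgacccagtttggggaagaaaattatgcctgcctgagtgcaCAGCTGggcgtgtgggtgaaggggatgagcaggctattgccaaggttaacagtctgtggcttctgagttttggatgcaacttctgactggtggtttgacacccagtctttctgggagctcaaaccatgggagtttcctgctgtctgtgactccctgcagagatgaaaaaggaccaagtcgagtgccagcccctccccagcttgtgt
A region of NUP210 within 1 kb of a start site (chr3:13421029-13421328) gained signal with ATRA, and the capitals mark the retinoid receptor half-site AGGTCA or its reverse complement TGACCT.
NUP210: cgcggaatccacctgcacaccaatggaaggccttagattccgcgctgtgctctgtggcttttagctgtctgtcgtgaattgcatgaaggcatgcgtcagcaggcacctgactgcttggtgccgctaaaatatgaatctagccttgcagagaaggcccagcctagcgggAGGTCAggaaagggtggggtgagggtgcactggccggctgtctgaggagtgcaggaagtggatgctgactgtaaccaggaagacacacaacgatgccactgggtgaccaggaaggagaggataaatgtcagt

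Some libraries stood apart. The signal summed over the 2417 regions was 56106 in Cas9 control ATRA replicate 2 and 80358 to 93473 in the other 7 ATACseq libraries. Replicates had correlations of 0.876 in HK3-null ATRA and 0.935 to 0.951 in the other groups, across regions on the log2(signal + 1) scale. In RNAseq, 61 of 1493 listed genes had at least 10 normalized counts in Cas9 control DMSO replicate 1 and at most 2 in both other replicates, against 15 in Cas9 control ATRA replicate 3 and 0 in the other 10 libraries. HK3 itself, which no region lists, had normalized counts of 90, 65 and 105 in Cas9 control DMSO and 344, 302 and 346 in HK3-null DMSO, so its RNA was not lower under the knockout label. In ATRA it had 1305, 1298 and 1850 in Cas9 control and 1384, 1285 and 1975 in HK3-null cells. The study checked its knockout lines by sequencing the cut site and by mass spectrometry of the protein, neither of which RNA counts measure. The summed level of 8 promyelocyte markers was 564495 to 851553 normalized counts per library, while 4 lymphoid, 3 erythroid, 2 megakaryocyte and 3 epithelial markers summed to at most 119, 58, 29 and 56. Fibroblast markers (COL1A1 and COL3A1) summed to 7 to 322 and endothelial markers (PECAM1 and CDH5) to 45 to 1455, the latter mostly from PECAM1, which myeloid cells also make and which lists a region here.

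In DMSO, regions of both directions were frequent and large. Of the 2417 regions, 1306 (54%) had more signal in HK3-null than in Cas9 control cells, the median difference was 0.42 on the log2(signal + 1) scale, the quartiles were -1.773 and 1.502, and the values ran from -5.55 to 5.90. The filter on low signal (a mean over 8 libraries above 17.1) left 1719 regions, of which 721 (41.9%) were called higher and 746 (43.4%) lower with a fold of 1.5 or more and an adjusted p below 0.05 (limma, all 4 groups in 1 fit). Among all 6214 tested regions 42.7% were called higher and 43.9% lower, so these shares are near the background and are no result about single-gene regions. Both replicates of HK3-null cells lay above both of Cas9 control in 1204 regions and below in 1064, and over all 8286 regions the shares were 50.1% and 44.6%. In such bulk libraries, more cells with an open region and a more open region per cell cannot be told apart. All deposited regions differ between the genotypes in ATRA by at least 1.65-fold in their group means, so they were picked on that contrast. No such limit shows in DMSO, where the lowest ratio of group means was 1.00 and 233 of the 2417 regions lay under 1.5. The study merged peaks over the compared samples, and the test in DMSO takes its spread from all 8 libraries. It is therefore not fully separate from that choice. The share of calls in DMSO holds for regions picked on a genotype difference and not for open regions at large. The share of regions with more signal in HK3-null DMSO was lowest on chromosome 21 (28.3%, 46 regions) and highest on chromosome 7 (67.1%).

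The 10 largest rises, taken among called regions with a mean signal above the median of all regions, belonged to genes of varied function. At the promoter of NEFH, which encodes the heavy neurofilament protein, the DMSO signal was 1.85 and 2.91 in Cas9 control and 194 and 181 in HK3-null cells, a log2 difference of 5.82 (SE 0.37, adjusted p = 2.23e-15). An intron of HELZ, which encodes an RNA helicase, had the largest of them, from 0 and 2.07 to 111 and 96.9 and a log2 difference of 5.90 (SE 0.44, adjusted p = 1.31e-13). No Cas9 control library came near a HK3-null library in either region. SLC15A4, a lysosomal transporter of histidine and peptides, had 1.73 and 0 against 90.6 and 75.05. The promoter of GALC, the lysosomal enzyme that degrades galactosylceramide, had 2.86 and 1.78 against 101 and 85.7. IFT27, a small GTPase of ciliary transport, had a promoter signal of 6.30 and 8.15 in Cas9 control DMSO and 230.2 and 220.2 in HK3-null DMSO. The groups were far apart in all 3 regions. ZEB1, a zinc finger repressor known from the epithelial to mesenchymal transition, had 1.75 and 1.30 against 78.6 and 61.1. In the other 4 regions of the 10 with the largest rises, listed for ZFYVE28, LOC105376626, the amino acid transporter SLC38A10 and the zinc finger gene ZFP37, the log2 differences were 5.59, 5.34, 5.08 and 5.03.

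The 10 largest falls, taken in the same way, left little signal in HK3-null cells. The promoter of ZNF441, a zinc finger gene on chromosome 19, had 145 and 135 in Cas9 control DMSO and 2.54 and 1.58 in HK3-null DMSO, a log2 difference of -5.54 (SE 0.39, adjusted p = 2.63e-14). In an intron of DCC, the netrin receptor of growing axons, the values were 125 and 133 against 2.08 and 2.67, and the log2 difference was -5.27 (SE 0.40, adjusted p = 2.61e-13). Neither region overlapped between the genotypes. OSBPL5, a lipid transfer protein, had 122 and 162 against 3.38 and 1.85 near a start site. PKP1, a plakophilin of desmosomes whose sequence is printed above, had 131 and 117 against 2.37 and 4.90. GALNT14, which starts the O-glycosylation of proteins, had 240.4 and 239.9 against 11.7 and 5.73. Each of these 3 regions had at least 10 times less signal in both HK3-null libraries. Further regions of this group were listed for the protease PCSK5, the ion exchanger SLC24A3, the ciliary protein ANKS6, the T cell signalling regulator UBASH3A and LOC101928135, with log2 differences of -4.98, -4.80, -4.56, -4.55 and -4.52.

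**Figure D1:**
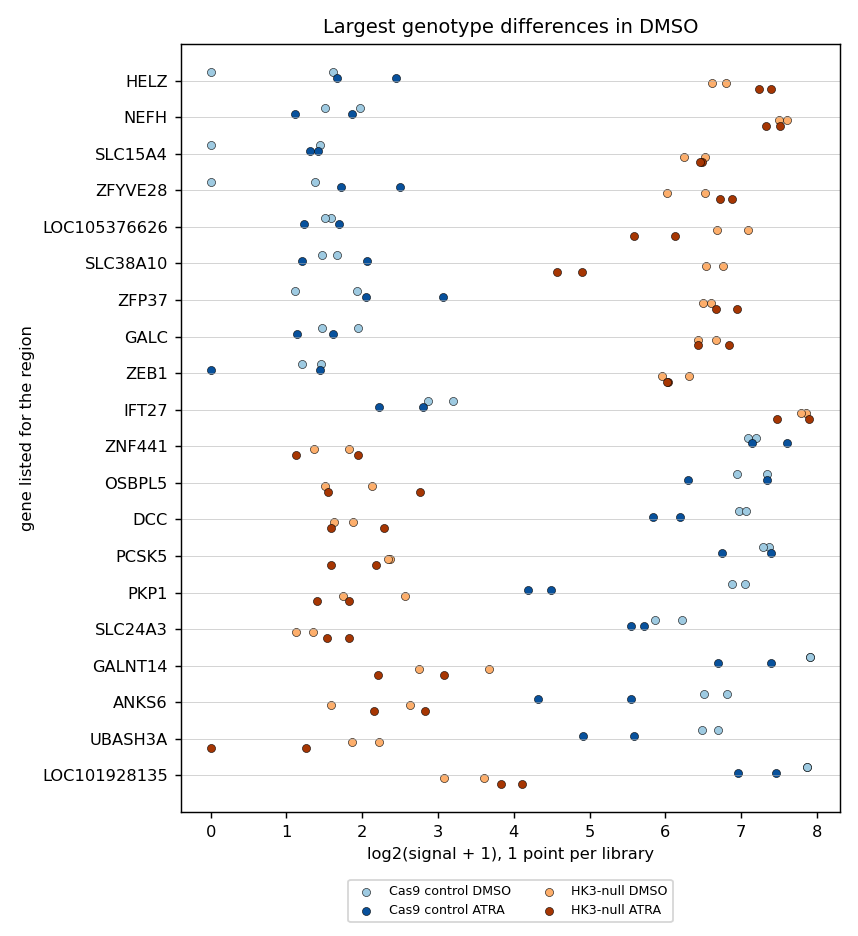
Signal of the 20 regions with the largest genotype differences in DMSO, as log2(signal + 1) on the horizontal axis and 1 point per library, with 2 libraries in each of the 4 groups (colours) and the listed gene on the vertical axis. In DMSO, both HK3-null libraries lie above both Cas9 control libraries in the upper 10 regions and below them in the lower 10.

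The genotype difference kept its direction between the treatments. In ATRA, on which the regions were picked and where values are a description only, 1346 regions had more signal in HK3-null cells and 1071 had less, with log2 differences of -5.84 to 5.93. In DMSO, whose libraries are separate, 1301 of the former and 1066 of the latter had the same sign, 2367 (97.9%) in all. Across regions, which are not independent and share their libraries, Pearson's r between the 2 differences was 0.928 and Spearman's coefficient 0.904. The median of the regions higher in ATRA was 1.85 there and 1.35 in DMSO, and that of the lower regions was -2.06 in ATRA and -1.91 in DMSO. In 1556 regions (64.4%) the DMSO difference was the smaller of the 2, and 233 regions fell under 1.5-fold in DMSO. What part the choice on the ATRA difference has in this was not tested.

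**Figure D2:**
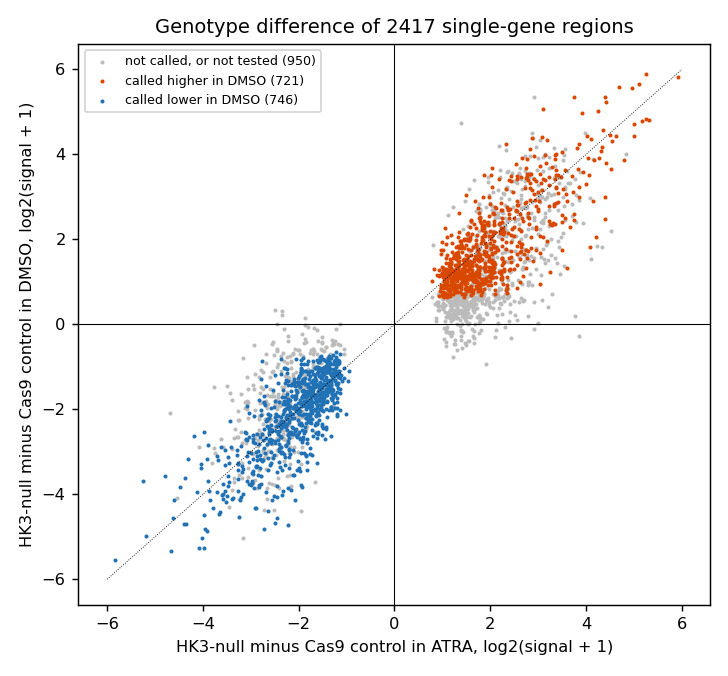
Genotype difference (HK3-null minus Cas9 control) of each of 2417 single-gene regions in ATRA on the horizontal axis and in DMSO on the vertical axis, both as log2(signal + 1), with the calls in DMSO as colours and the line of equal differences dotted. The gap around 0 on the horizontal axis is the choice of the deposited regions, and 2367 points lie in the 2 quadrants of equal sign.

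The regions mostly lay inside their gene. This follows in part from the rule, which keeps regions to which the authors assigned 1 gene and leaves out those with none or several. The same holds for the share in introns. Of 2236 regions whose gene has RefSeq coordinates in GRCh38, 1896 (84.8%) overlapped the gene body and 2235 lay within 100 kb of it. By GENCODE annotation of the region centre, 1434 (59.3%) were in introns, 490 (20.3%) within 1 kb of a start site of any transcript and 384 (15.9%) between genes, while introns held 44.3% of all 8286 regions. Untranslated, coding and noncoding exons held 50, 24 and 35. Of the regions by a start site, 183 of 372 tested were called higher in HK3-null DMSO and 151 lower. In introns 398 of 991 were called higher and 455 lower, while 742 of all 1434 (51.7%) had more signal in HK3-null DMSO. Between genes 108 and 110 of 279 were called. On median-centred libraries the calls over all places were 806 higher and 718 lower. Among the regions with several genes on the same chromosomes 85.6% of the tested regions were called in DMSO and among those with no gene 82.2%, against 85.3% here.

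Regions of the 2 directions held some motifs in unequal shares. The AP-1 motif TGANTCA was in the central 300 bases of 243 of 721 regions called higher in HK3-null DMSO (33.7%) and of 58 of 746 called lower (7.8%), while 18.1% of all 8286 windows of this length held it. Of the 502 regions with the motif, 413 (82.3%) had more signal in HK3-null DMSO and the median log2 difference was 1.18, compared with 46.6% and -0.59 among the 1915 without it. By a start site 20.8% of the higher and 4.6% of the lower regions held AP-1, and farther away 38.1% and 8.6%. The E-box CAGCTG went the other way, with 19.3% of the higher and 31.2% of the lower regions against 21.2% of all windows. So did the PU.1 motif GAGGAAGT, with 5.7% and 10.7% against 8.7%, and the CTCF core AGGGGGC, with 8.2% and 12.7% against 8.4%. For C/EBP (TTGCNNAA) the shares were 15.8% and 18.1% against 18.5%, and for RUNX (TGTGGTT) 12.8% and 17.4% against 13.5%. The motif AGATAAG of the GATA factors was in 3.6% and 4.4% against 3.7%. IRF (GAAA and again GAAA after any 2 bases) was in 29 and 42 regions, the latter 5.6%, against 5.9% of all windows, the SP and KLF motif GGGGCGGG in 8.0% and 5.9% against 7.0%, and the half-site AGGTCA in 19.4% and 15.4% against 17.9%. ETS (CCGGAAGT) and NF-κB were in at most 7 regions of either. Both strands were searched, no letters of the 12 motifs were allowed to differ, and matches of different motifs could overlap. A match describes the letters of the window and is no evidence that a factor was bound. The motifs were written after the files had been read, and the 4 plotted were chosen after the shares were seen.

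**Figure D3:**
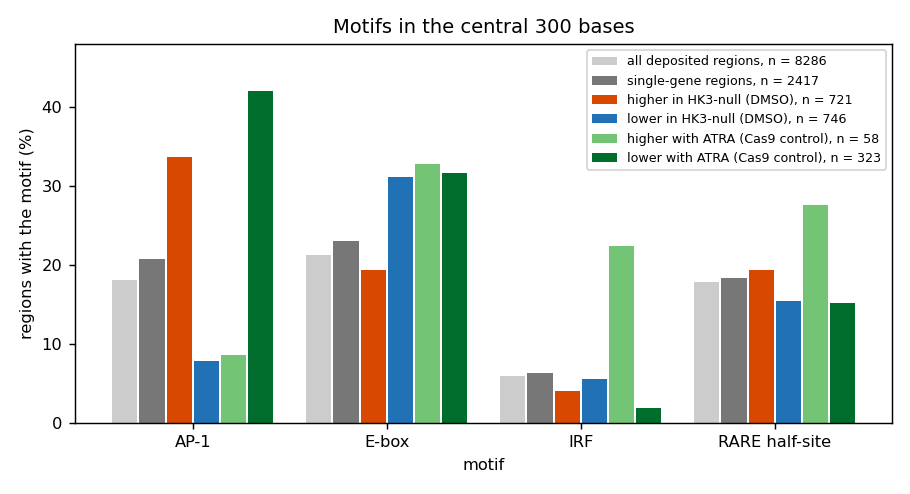
Share of regions with the AP-1, E-box, IRF or retinoid receptor (RARE) half-site motif in their central 300 bases, in percent, for all deposited regions, single-gene regions and the single-gene regions called in each direction. AP-1 is in 33.7% of the regions higher and 7.8% of those lower in HK3-null DMSO, and in 42.1% of those lower with ATRA in Cas9 control.

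More of the regions lost signal with ATRA than gained it, in both genotypes. In Cas9 control cells 58 of 1719 tested regions (3.37%) were called higher and 323 (18.8%) lower with ATRA, while 2.54% and 15.6% of all tested regions were. In HK3-null cells 121 (7.04%) were higher and 225 (13.1%) lower, against 5.04% and 11.8%. The shares stand little above the background, and the regions were picked on the ATRA libraries that both contrasts use. The balance in Cas9 control depended on scaling. Cas9 control ATRA replicate 2 had the lowest summed signal, and centring the libraries on their medians moved the median of all tested regions by 0.26 and gave 127 higher and 239 lower (34.7% higher of those called against 15.2%). Without that library 58 were higher and 135 lower, and without replicate 1, which leaves the low library as the sole one, 19 and 409. In HK3-null cells centring gave 148 and 229. Of the regions called lower in Cas9 control 121 (37.5%) were also called lower in HK3-null cells, where they were 53.8% of the list. Of the 58 higher in Cas9 control 36 (62.1%) were also higher in HK3-null cells, 29.8% of that list, and no region was called in opposite directions.

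The 5 largest rises with ATRA in each genotype, taken by the same rule, shared the region of SLC2A5. The intron of SLC2A5, which encodes the fructose transporter GLUT5, went from 14.3 and 23.6 in DMSO to 82.7 and 70.5 in ATRA in Cas9 control cells, a log2 difference of 1.99 (SE 0.33, adjusted p = 3.70e-05). In HK3-null cells it went from 10.3 and 15.5 to 138 and 190.1, a difference of 3.58 (SE 0.33, adjusted p = 1.27e-09). ATRA and DMSO libraries were apart in both genotypes. The promoter of PTGES, the enzyme that makes prostaglandin E, had 11.9 and 7.36 in HK3-null DMSO and 124 and 79.9 in HK3-null ATRA, with a log2 difference of 3.28 (SE 0.40, adjusted p = 1.55e-07). An intron of CYP27A1, the sterol hydroxylase of bile acid synthesis, had 28.5 and 21.9 in HK3-null DMSO and 162 and 164 in HK3-null ATRA. In Cas9 control its DMSO values of 15.8 and 21.8 overlapped with its ATRA values of 22.9 and 12.3. LOC105376517 had 35.7 and 37.8 in HK3-null DMSO and 249 and 267 in HK3-null ATRA. In FBLN1, which encodes the matrix protein fibulin 1, the HK3-null values were 20.9 and 18.2 in DMSO and 164 and 184 in ATRA. Other regions named for a rise in Cas9 control were those of HTT-AS (2.09), the arginine methyltransferase PRMT2 (1.91), the polycomb-associated ASXL3 (1.69) and the nuclear pore gene NUP210 (1.66), as log2 differences. The rise at NUP210 passed the test with all libraries and not without Cas9 control ATRA replicate 1 (adjusted p = 0.124, limma) or Cas9 control DMSO replicate 1 (adjusted p = 0.127, limma).

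The 5 largest losses in each genotype had no region in common. A region near DRGX, a homeobox gene of sensory neurons, fell in Cas9 control cells from 249.7 and 278 to 17.4 and 16.9, a log2 difference of -3.87 (SE 0.35, adjusted p = 1.88e-09). In HK3-null cells its values were 20.04 and 15.6 in DMSO and 3.27 and 4.36 in ATRA. In an intron of ERG, an ETS factor of blood stem cells and leukemia, the HK3-null signal fell from 157 and 129.6 to 8.12 and 6.18, a difference of -4.15 (SE 0.33, adjusted p = 2.62e-11), and the Cas9 control signal went from 175 and 161 to 43.6 and 20.4. ATRA values lay below DMSO values in both genotypes for both genes. The start site of the keratin gene KRT80 had 54.95 and 64.2 in Cas9 control DMSO and 8.91 and 5 in ATRA. In HK3-null cells it had 86.9 and 85.2 in DMSO and 22.05 and 21.7 in ATRA. Further losses in Cas9 control were found at the insulin-degrading enzyme IDE (-3.01), the tetraspanin TSPAN2 (-2.85) and the lipid kinase PI4KB (-2.70). In HK3-null cells they were found at LOC100996338 (-3.12), the neuronal catenin CTNNA2 (-2.96), the glutamate receptor gene GRID1 (-2.93) and CNIH3 (-2.65), all as log2 differences. LOC100996338, CTNNA2 and GRID1 were also called lower in Cas9 control (-2.34, -1.05 and -2.18), and CNIH3 was not (-0.56). IDE was also called lower in HK3-null cells (-1.32), and TSPAN2 (-0.84) and PI4KB (-0.44) were not.

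**Figure D4:**
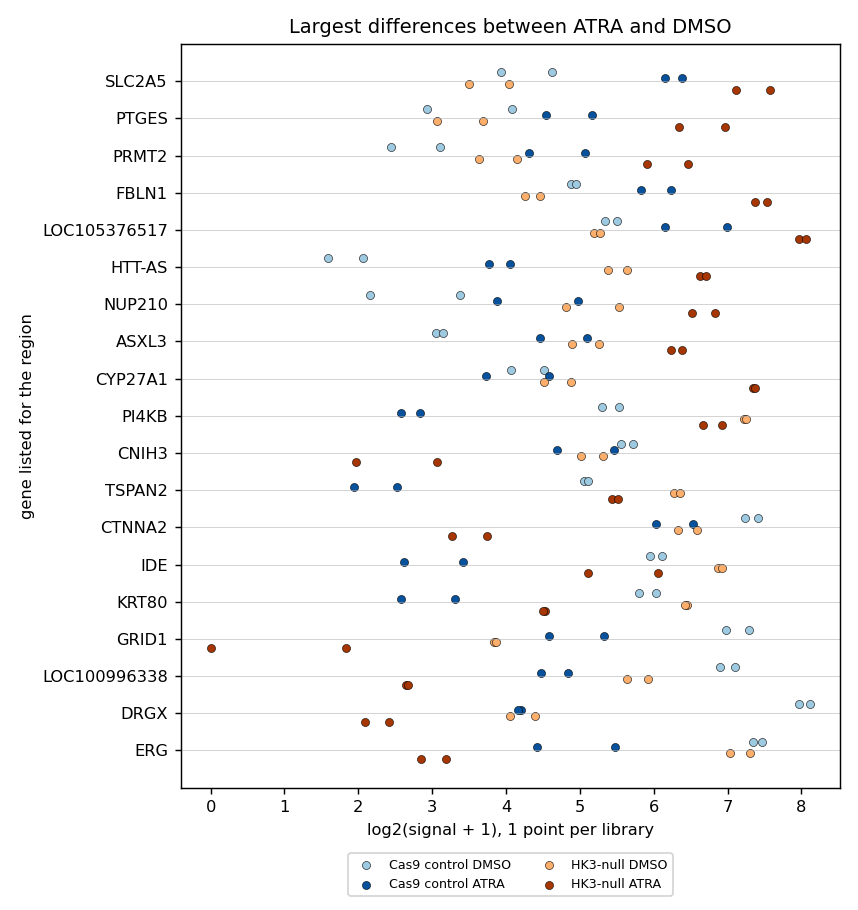
Signal of the 19 regions named for their ATRA effect in either genotype, as log2(signal + 1) on the horizontal axis with 1 point per library and the 4 groups as colours. SLC2A5 rose and ERG fell with ATRA in both genotypes, while the CYP27A1 values of Cas9 control overlap.

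Shares of motifs also differed between regions that gained and lost signal with ATRA. AP-1 was in 42.1% of the 323 regions lower with ATRA in Cas9 control and in 8.6% of the 58 higher. Of 373 tested regions with AP-1, 136 (36.5%) were called lower in Cas9 control and 51 (13.7%) in HK3-null cells, against 13.9% and 12.9% of those without it. The IRF motif was in 13 of the 58 regions higher in Cas9 control (22.4%), compared with 6.3% of all 2417 and 1.9% of those lower. The 13 included introns of UBR4 and CABLES1, with log2 differences of 2.30 and 2.08, and of ASB2, a ubiquitin ligase subunit that ATRA induces in promyelocytic leukemia cells, with 1.61 (these genes were chosen after their values were seen). In HK3-null cells IRF was in 4.1% of the 121 regions higher with ATRA and in 3.6% of the 225 lower. Over all 152 regions with IRF, called or not, the median log2 difference with ATRA was similar, 0.193 in Cas9 control and 0.136 in HK3-null cells. Without the motif the medians were -0.268 and -0.147. The motif shares were not computed again on median-centred libraries, where the list of higher regions in Cas9 control was longer. C/EBP was in 27.9% of the lower and 12.1% of the higher regions in Cas9 control, and in 16.4% and 15.7% in HK3-null cells. The half-site AGGTCA was in 27.6% of the regions higher in Cas9 control and 29.8% of those higher in HK3-null cells. Of those lower, it was in 15.2% and 16.4%. GATA was in 27 of the 225 regions lower in HK3-null cells and in 15 of the 323 lower in Cas9 control. Whether these shares differ beyond the choice of the regions was not tested.

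The ATRA effect itself differed between the genotypes in 9 of the tested regions at an adjusted p under 0.05 (limma interaction), and in 17 of all 6214. The interaction holds the ATRA difference on which the regions were picked. It was positive at CYP27A1, PI4KB, FBLN1, BMPER, SH3BP2 and LOC102723440, with log2 values of 1.98 to 2.79, and negative at CTNNA2, TMEM229B and BAHCC1, with -1.91 to -2.66. At PI4KB the signal fell with ATRA in Cas9 control from 38.3 and 45 to 5 and 6.13 and was 148 and 152 in HK3-null DMSO and 120.4 and 100.4 in HK3-null ATRA.

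Genes with several regions mostly had differences of 1 sign. Of 394 genes with at least 2 regions (1000 regions), 149 had only higher values in HK3-null DMSO, 146 only lower values and 99 values of both signs, so 295 (74.9%) had a single sign. Among the 120 genes with at least 3 regions it was 84 (70%). The SD of the log2 difference was 1.45 within a gene and 2.13 over all 2417 regions. Neighbouring regions of a gene less than 5 kb apart had the same sign in 149 of 155 pairs (96.1%), those 5 to 50 kb apart in 219 of 271 (80.8%) and those farther apart in 125 of 180 (69.4%). Pearson's r across these pairs was 0.846, 0.639 and 0.403, a description over pairs that share their libraries. Neighbouring regions of different genes were not compared, so whether these shares are particular to regions of 1 gene was not tested.

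The genes with the most regions were GRID1 and PITPNC1 (8 each), ASIC2, DAB1, PCSK5, SLC24A3 and TNS3 (7 each) and BTBD11 (6). At PCSK5, a protease that cuts precursor proteins, all 7 log2 differences in DMSO were negative and lay between -4.98 and -1.55. At SLC24A3, an exchanger of sodium, potassium and calcium, they lay between -5.03 and -1.80. ASIC2, an acid-sensing ion channel, and DAB1, an adaptor of reelin signalling, also had negative values in all 7 regions. The opposite held for TNS3, a focal adhesion protein, with 7 values of 2.69 to 3.72, and for PITPNC1, a lipid transfer protein, with 8 values of 1.43 to 3.62. GRID1 had 7 negative values and 1 positive value. Its region at chr10:86170475-86171262 had 86.2 and 78.5 in Cas9 control DMSO and 76.04 and 75.6 in HK3-null DMSO, a difference of -0.12 that turned positive (0.08) on median-centred libraries. BTBD11 had 4 negative values in its first regions along the chromosome and 2 positive values at the far end. The last region had 1.27 and 2.79 in Cas9 control DMSO and 60.4 and 54.7 in HK3-null DMSO. It lay outside the gene body, 25.6 kb from the nearest start of BTBD11 and within 1 kb of another start site. The other positive region fell below the filter on low signal and was not tested.

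RNA followed the regions for many genes. Of the 1811 genes 1493 were in the RNAseq tables and 1008 were tested, and of these 169 (16.8%) were called higher in HK3-null DMSO and 111 (11%) lower with a fold of 2 or more and an adjusted p below 0.05 (limma). Among all 13256 tested genes the shares were 11.1% and 8.2%. Of 367 tested genes whose called regions were all higher, the RNA was called higher in 110 (30%) and lower in 11 (3%). Of 298 tested genes whose called regions were all lower, it was called lower in 74 (24.8%) and higher in 9 (3.02%). Genes with no called region were higher in 44 and lower in 25 of 310. In all, 184 genes had region and RNA called in the same direction and 20 in opposite directions. Without the RNAseq library Cas9 control DMSO replicate 1 these counts were 192 and 21. In ATRA, the contrast on which the regions were picked, the RNA was called higher in 200 of the 1008 genes (11.4% of all tested genes were) and lower in 140 (9.93% of all), among them 172 higher and 19 lower of 589 genes with more signal and 111 lower and 19 higher of 346 with less.

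The relation differed in these values with the distance to the start of the gene. Regions within 1 kb of a start of their own gene had the sign of the RNA difference in 242 of 300 cases (80.7%, Pearson's r 0.649 across regions), compared with 61.3% of 545 at 1 to 10 kb, 66.5% of 517 at 10 to 100 kb and 66.7% of 42 farther away. Of 115 regions called higher within 1 kb, 71 (61.7%) belonged to genes with RNA called higher and 4 to genes with RNA called lower. Of 101 called lower, 44 (43.6%) belonged to genes with RNA called lower and 5 to genes with RNA called higher. At 1 to 10 kb the shares in the same direction were 21.7% and 19.7%. Among all tested genes 11.1% had RNA called higher and 8.2% lower. Over genes, the mean region difference and the RNA difference had the same sign in 684 of 1008 (67.9%), and in 293 of 343 (85.4%) with an RNA fold of at least 2. Genes and regions are not independent replicates, and these are descriptions.

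**Figure D5:**
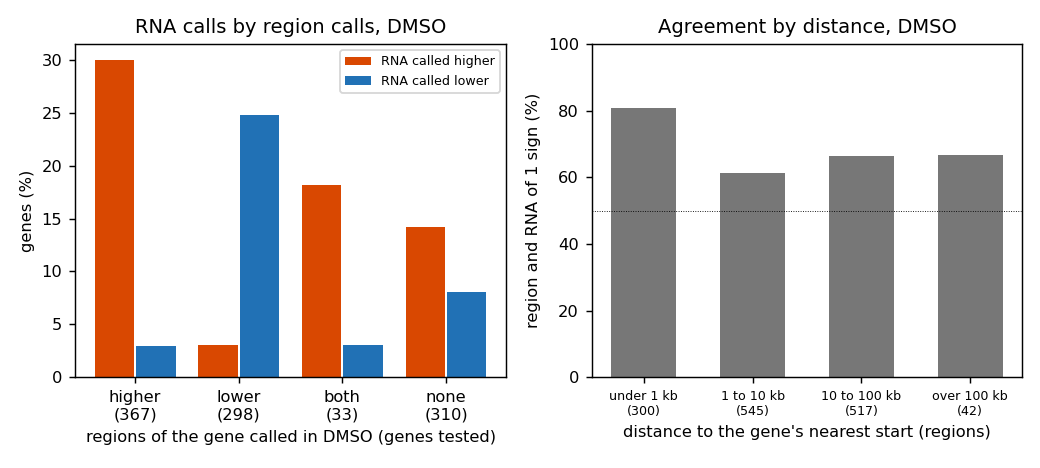
Left, share of tested genes with RNA called higher or lower in HK3-null DMSO, by whether the called regions of the gene were all higher, all lower, of both kinds or absent. Right, share of regions whose genotype difference in DMSO had the sign of the RNA difference, by distance to the nearest start of the gene, with 50% dotted. RNA was called higher for 30% of genes with higher regions and lower for 24.8% of those with lower regions, and 80.7% of regions within 1 kb had the sign of the RNA.

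Several genes had RNA almost only in a single genotype and a region that changed in the same direction. FOXP2, a forkhead transcription factor, was listed at 0 in all 6 Cas9 control RNAseq libraries and had normalized counts of 147, 199 and 162 in HK3-null DMSO. Its promoter region had a signal of 16.9 and 17.2 in Cas9 control DMSO and 114 and 122 in HK3-null DMSO. ZNF441 was the reverse, with 224, 227 and 190 normalized counts in Cas9 control DMSO and 0 in all 6 HK3-null libraries, beside the promoter signal given above. The tumor suppressor candidate TUSC1 had 6, 0 and 0 against 396, 333 and 314 normalized counts and a promoter signal of 6.07 and 3.32 against 121 and 115. RCN1, a calcium-binding protein of the endoplasmic reticulum, had 59, 0 and 0 against 677, 596 and 551, the first value being that of the library with the 61 genes, and a signal of 3.28 and 2.04 against 62.6 and 85.1. For both genes the signal of every HK3-null library exceeded that of every Cas9 control library. ROBO1, a receptor of Slit guidance proteins, had 206, 166 and 160 against 1, 0 and 0 normalized counts and a signal of 64.6 and 55.8 against 11.5 and 12 at its promoter. The keratin gene KRT16 had 14, 19 and 11 against 0 in all HK3-null libraries, and LOC730102 had 1, 0 and 0 against 258, 239 and 271. SIGLEC8, a lectin of eosinophils, was listed at 0 in Cas9 control DMSO and had 36, 34 and 39 in HK3-null DMSO, with a signal of 24.6 and 24.1 against 53.9 and 55.1. Of the 10 regions with the largest rises, NEFH had 3, 0 and 1 against 1092, 1050 and 1038 normalized counts. GALC had 3, 1 and 0 against 440, 423 and 401.

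Other genes moved against their region or did not move. CACNA2D4, a calcium channel subunit, had 224, 220 and 206 normalized counts in Cas9 control DMSO and 2950, 3012 and 2704 in HK3-null DMSO, a log2 difference of 3.74 (SE 0.07, adjusted p = 1.71e-11). Both of its regions had less signal in HK3-null cells, with 225 and 234 against 111 and 95.1 in the first. TNFRSF8, the receptor CD30, had 34, 18 and 36 against 426, 386 and 403 normalized counts, a difference of 3.85 (SE 0.35, adjusted p = 3.26e-06), and a signal of 56.8 and 54.2 against 7.29 and 1.75 in its gene body. CRISPLD2, a secreted protein that binds endotoxin, had 5, 5 and 7 against 38, 36 and 33 normalized counts and 126 and 152 against 48.9 and 52 in signal. LINC00504, the ubiquitin ligase NEDD4L and RIBC2 had more signal and fewer counts in HK3-null cells, at up to 26 normalized counts per library in Cas9 control DMSO, and the RNA calls of NEDD4L (adjusted p = 0.0697 without Cas9 control DMSO replicate 1) and RIBC2 (adjusted p = 0.0555 without Cas9 control DMSO replicate 3) were lost in limma when a library was left out, as was the region call of RIBC2 without HK3-null DMSO replicate 1 (adjusted p = 0.206). At HELZ the RNA was 1212, 1374 and 1574 in Cas9 control and 1230, 1477 and 1728 in HK3-null DMSO, a log2 difference of 0.09 (SE 0.16, adjusted p = 0.66) that did not pass the test, although its region had the largest rise in DMSO signal. OSBPL5 had less signal and 2788, 2542 and 3514 against 4725, 4271 and 4585 normalized counts, a log2 difference of 0.63 (SE 0.11, adjusted p = 0.00059). DRGX, UBASH3A, PKP1, HTT-AS, LOC100996338 and LOC101928135 were listed at 0 in all 12 RNAseq libraries. RNA of DCC, SLC24A3, PCSK5, ASIC2, DAB1, CTNNA2 and FBLN1 was too low to be tested. For these genes no RNA change could be set beside the region.

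The ATRA effects were compared in the same way. Of the 1008 tested genes 155 (15.4%) had RNA called in either direction with ATRA in Cas9 control and 221 (21.9%) in HK3-null cells, while 9.63% and 14.1% of all tested genes were. The mean region difference and the RNA difference had the same sign in 52.8% of the genes in Cas9 control and in 54.5% in HK3-null cells. Among genes with an RNA fold of at least 2 it was 137 of 240 (57.1%) and 183 of 288 (63.5%). The ATRA libraries of both contrasts are those on which the regions were picked. SLC2A5 rose in both layers, with 2892, 2670 and 2751 normalized counts in Cas9 control DMSO and 15789, 16134 and 14650 in ATRA, a log2 difference of 2.49 (SE 0.08, adjusted p = 7.59e-10), and of 4.64 (SE 0.08, adjusted p = 1.10e-11) in HK3-null cells. PTGES had 0, 1 and 6 in HK3-null DMSO and 7006, 7794 and 5906 in HK3-null ATRA, and 93, 149 and 82 in Cas9 control ATRA. CYP27A1 had 3, 2 and 2 in HK3-null DMSO, 252, 247 and 240 in HK3-null ATRA and 6, 16 and 35 in Cas9 control ATRA. CCL2, a chemokine for monocytes, had 102, 56 and 26 in Cas9 control DMSO and 5122, 4544 and 2983 in ATRA, and its region went from 1 and 1 to 13.2 and 8.41. ASXL3 was listed at 0 in all DMSO libraries and had 5, 8 and 1 in Cas9 control ATRA and 16, 27 and 22 in HK3-null ATRA. ERG RNA fell with ATRA by a log2 difference of -1.81 (SE 0.23, adjusted p = 8.28e-05) in Cas9 control and -1.27 (SE 0.23, adjusted p = 0.000721) in HK3-null cells.

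Gene groups of myeloid cells and stress responses were covered by few regions. Among all tested regions 42.7% were called higher and 43.9% lower in HK3-null DMSO, and among all tested genes 11.1% and 8.2%. The lists were chosen with earlier results of these data known, and none was tested as a set. Of 115 genes of adhesion, integrins and the cytoskeleton, 21 list 33 regions, and of the 20 tested regions 14 were called higher and 2 lower in HK3-null DMSO, with a median log2 difference of 0.93 over the 33, and the RNA of 6 of 15 tested genes was higher and of 1 lower. RHOB, a small GTPase of actin and endosomes, had a promoter signal of 8.71 and 5.47 against 95.8 and 82.6. PECAM1, an adhesion molecule of leukocytes and endothelium, had 7.33 and 5.67 against 47.3 and 55.2 in its intron and 44, 58 and 55 against 535, 556 and 480 normalized counts. The genotypes were apart in both regions. Among 10 genes of TNF and NF-κB signalling (12 regions), 8 of 10 tested regions were higher and 1 lower, with a median of 1.34, and the RNA of 4 of 9 tested genes was higher and of 0 lower. CXCL8, the neutrophil chemokine, had 1.67 and 3.12 against 22.5 and 33 in signal and 135, 110 and 82 against 1774, 1351 and 721 normalized counts. CCL2, a monocyte chemokine, had 1 and 1 against 15.3 and 19.7 in signal and 102, 56 and 26 against 479, 453 and 338 in counts. IRAK2, a kinase of interleukin 1 receptors, had 14.4 and 14.9 against 55 and 56.3 in signal. The RNA of IRAK2 (log2 difference 0.46, SE 0.31, adjusted p = 0.233, limma) and RHOB (4.59, SE 2.71, adjusted p = 0.174, limma) did not pass the test. RHOB had 15, 0 and 2 normalized counts in Cas9 control DMSO (mean 5.67) and 6, 7 and 10 in HK3-null DMSO (mean 7.67). Its log2 difference of 4.59 depends on the value written for 0 and does not measure the size of an RNA change.

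Transcription factors, retinoid genes and cell death genes had called regions of both directions, beside the 42.7% higher and 43.9% lower of all tested regions. Of 22 transcription factors of myeloid cells and leukemia (28 regions), 5 of 23 tested regions were higher and 12 lower, with a median of -1.03, and RNA was called higher in 2 and lower in 1 of 18 genes. MECOM, a stem cell factor, had 35.3 and 34.5 against 1.62 and 2.60 in an intron and at most 3 normalized counts in any library. NFIL3, a bZIP repressor, had 2.08 and 0 against 30.2 and 31.6 in signal. Its RNA differed by 0.08 (SE 0.19, adjusted p = 0.736, limma) on the log2 scale. Of 10 retinoid receptors and ATRA-responsive genes (17 regions), 2 of 13 tested regions were higher and 10 lower, with a median of -0.88, and the RNA of 2 of 7 tested genes was higher and of 0 lower. RXRG, a retinoid X receptor, had 28.1 and 36.5 against 4.61 and 3.50 at its promoter, and PPARGC1A, a coactivator of mitochondrial genes, 43.7 and 56.5 against 4.81 and 3.75 in an intron. RNA of RXRG and PPARGC1A was too low to be tested. In 7 programmed cell death genes (8 regions) 2 of 7 tested regions were higher and 5 lower. BCL2L1, which holds back apoptosis, had 84.7 and 80.6 against 14.6 and 23.2 in an intron and an RNA difference of 0.03 (SE 0.07, adjusted p = 0.776) on the log2 scale. Its relative BCL2 had 36.5 and 61.5 against 9 and 11.9 and an RNA difference of 0.75 (SE 0.06, adjusted p = 9.87e-07). CASP10, an initiator caspase, had 8.94 and 12.9 against 56.5 and 60.7 in signal. It had 336, 382 and 466 against 442, 489 and 627 normalized counts, higher in HK3-null cells for every replicate number. Its RNA difference of 0.39 (SE 0.18, adjusted p = 0.0824, limma) did not pass in this fit, which does not pair same-numbered replicates.

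The remaining groups held at most 10 regions each. Neutrophil and granule genes (5 genes, 6 regions) had 2 of 4 tested regions higher (S100A9 and PADI4) and 1 lower (QPCT). The call at PADI4 was lost without any 1 of the 4 DMSO libraries (adjusted p = 0.0684 to 0.18, limma) and with a replicate block, and that at QPCT under quantile normalization and without any of 3 DMSO libraries (adjusted p = 0.0588 to 0.203, limma). S100A9, a calcium-binding protein of neutrophils, had 2.33 and 6.29 against 46.1 and 44.9 in signal and 843, 694 and 767 against 15826, 15646 and 15278 normalized counts. Monocyte and macrophage genes (3 genes, 4 regions) had 2 higher and 2 lower. SIRPA, an inhibitory receptor of phagocytes, had 70.9 and 78.3 against 7.84 and 8.81 in an intron while its RNA differed by 0.14 (SE 0.07, adjusted p = 0.0844) on the log2 scale. CD86, a costimulator of T cells, had 13.6 and 11.7 against 55.7 and 44.3 in signal and 32, 21 and 33 against 91, 92 and 123 in counts. Both tested regions of eosinophil, basophil and mast cell genes (CCR3 and SIGLEC8) were called higher, and the call at CCR3 was lost without any 1 of the 4 DMSO libraries (adjusted p = 0.0547 to 0.205, limma). The 1 erythroid and megakaryocyte region (GFI1B) was lower and the 1 lymphoid region (IL2RA) was not tested. Glycolysis and hexokinase genes (8 genes, 10 regions) had 5 of 8 tested regions higher and 2 lower. PFKM, the muscle form of phosphofructokinase, had a promoter signal of 44.7 and 89.2 against 2.36 and 7.29 and 1169, 1016 and 1129 against 24, 29 and 28 normalized counts, an RNA log2 difference of -5.36 (SE 0.14, adjusted p = 1.96e-10). Antioxidant genes (5 genes, 8 regions) had 1 of 6 higher and 4 lower, among them the promoter of MSRB3, a methionine sulfoxide reductase, with 51.8 and 47.03 against 13.8 and 16.8 in signal and 2099, 2015 and 2081 against 131, 123 and 128 in counts. DNA repair genes (5 genes, 7 regions) had 1 of 4 higher and 2 lower, with 40.1 and 44 against 5.59 and 7.36 near ERCC3, a helicase of excision repair whose RNA differed by 0.01 on the log2 scale. The higher call, at POT1, was lost without Cas9 control DMSO replicate 2 (adjusted p = 0.0519, limma) or HK3-null DMSO replicate 1 (adjusted p = 0.0801, limma). Interferon and antiviral genes (10 genes, 10 regions) had 1 of 5 higher and 2 lower, and IFNAR2, a subunit of the type I interferon receptor, had 111 and 125 against 22.6 and 20.9 in signal. The higher call, at TRIM25, was lost without any of 3 DMSO libraries (adjusted p = 0.072 to 0.191, limma), and the lower call at PARP12 without HK3-null DMSO replicate 2 (adjusted p = 0.125, limma). Beside these counts stand the 42.7% higher and 43.9% lower of all tested regions, and no list was tested as a set.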

How the data were processed

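The authors treated HK3-null and Cas9 control HL60 cells, froze them, and had RNAseq and ATACseq sequenced as paired ends on a NextSeq 500. The ATACseq signal of each region is a fragment density that the authors made from bwa mem alignments to hg38 (unique, at most 2 mismatches, duplicates removed) and merged MACS2 peaks, after all libraries were reduced at random to the tag number of the smallest. Depth per library is therefore unknown, and no counting error can be given. The deposited RNAseq values are on a log2 scale, and 2 to the power of each is a whole number, with 0 written as log2 of 0.001, so they are called normalized counts here although the methods name RPKM. The aligner and counter of the RNAseq reads were not found in the labels or methods, and 330 rows without a gene name were left out.

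Regions were tested as log2(signal + 1) with limma 3.58.1 in R 4.3.3 (1 mean per group, all 8 libraries, eBayes with trend), over the 6214 regions above the 25th percentile of mean signal. RNA was tested the same way on the deposited log2 values of 13256 genes with a group mean above 3 in at least 1 group. Benjamini-Hochberg adjustment covered all tested regions or genes. Named genes were the 10 (genotype) or 5 (ATRA) largest rises and falls per contrast among called regions whose groups did not overlap and whose mean signal exceeded the median, at most 1 per gene, the 8 genes with most regions, the 8 and 6 largest RNA changes among genes called in region and RNA in the same or opposite directions, and the 3 largest of each of 14 gene lists. Any other gene was chosen after its values were seen. The regions and lists were chosen with earlier results of these data known. Annotation came from GENCODE v44 and RefSeq on GRCh38, and the gene of a region is the authors' own assignment, which was not tested. Some items are not reported here.

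Fits were checked on simulated data. Same-numbered ATACseq replicates did not deviate together (correlations of -0.155 to 0.031 over the 6 pairs of groups), so they share a number only. In RNAseq the 18 correlations over 10667 genes were -0.148 to 0.353 on the deposited scale and 0.178 to 0.631 on log2(count + 1), a scale added after the first result was seen, so the RNAseq numbers pair the samples on the latter scale only. Alternatives were the pseudocount, the filters, centring, quantile normalization, the trend, the fold, the replicate block and leaving out each library.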

Additional observations from a re-analysis of the deposited data

Results flagged for a closer look

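The ATRA effect on the signal differed between the genotypes in 4 of the named regions by the limma interaction term, whose ATRA libraries are those on which the regions were picked. The value for HK3-null minus Cas9 control was 2.7916 at CYP27A1 (adjusted p = 0.00833), 2.256 at PI4KB (adjusted p = 0.0148), 1.9781 at FBLN1 (adjusted p = 0.0277) and -1.9088 at CTNNA2 (adjusted p = 0.0364), on the log2(signal + 1) scale.

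The genotype difference in RNA itself differed between ATRA and DMSO for 17 named genes by the same term, given here as the log2 value in ATRA minus that in DMSO. The named genes were picked by region and RNA changes in these data. The share of all tested genes passing this term is not given, so the count is no result about the named genes. HK3-null minus Cas9 control was above 0 in both treatments and smaller in ATRA for CACNA2D4 (-0.9806), CRISPLD2 (-2.3227), TNFRSF8 (-2.3221), PADI4 (-1.5957), S100A9 (-1.7779) and SIGLEC8 (-11.8628, which depends on the value written for 0, and -2.79 on log2(count + 1)). It was below 0 in both and nearer to 0 in ATRA for ANKS6 (0.8254) and PFKM (1.4594). Its sign in DMSO was the opposite of that in ATRA for BCL2 (-1.1022), NUP210 (-0.8078), CYP27A1 (5.7716), SLC2A5 (2.1566) and IFNAR2 (0.8236). The values of CRISPLD2 in ATRA and of IFNAR2, IRAK2 and SIRPA in DMSO did not pass the test themselves. It was larger in ATRA for IRAK2 (1.828), PRMT2 (0.4671), SIRPA (0.8075) and VAV2 (2.3782). The adjusted p was at most 0.0351 on the deposited scale and 0.0291 on log2(count + 1) (limma). SIGLEC8 had normalized counts of 1, 1 and 1 in Cas9 control ATRA and 11, 7 and 12 in HK3-null ATRA.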

How the results depend on the processing

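Of 179 alternative counts 162 stayed within 1.5 times the main count and 17 did not, and of 1946 for named regions and genes 1914 kept direction and call, 31 lost the call and 1 turned, GRID1 at 0.083 with median-centred libraries. Centring and quantile normalization raised the median of the genotype difference in DMSO by 0.199 and 0.085, and raised the regions higher with ATRA in Cas9 control from 58 to 127 and 129. Leaving out single ATACseq libraries gave 19 to 67 higher and 130 to 409 lower with ATRA in Cas9 control and 67 to 125 higher and 95 to 261 lower in HK3-null cells. In Cas9 control the higher count fell to 19 without ATRA replicate 1, 27 without DMSO replicate 1 and 37 without DMSO replicate 2, and the lower count to 135 without ATRA replicate 2 and to 208 and 130 without DMSO replicates 1 and 2. In HK3-null cells the higher count was 75 without ATRA replicate 1 and 68 and 67 without DMSO replicates 1 and 2, and the lower count 95 and 111 without DMSO replicates 1 and 2. The cause was not tested. For the genotype difference in DMSO the ranges were 561 to 740 higher and 674 to 753 lower. In ATRA the share of regions higher in HK3-null cells, 55.7% with all libraries, was 54.94% to 55.69% without single libraries, and the lowest value, without HK3-null ATRA replicate 1, moved by more than the spread between library pairs. With a fold of 1.5 the RNA calls with ATRA were 252 in Cas9 control and 352 in HK3-null cells and the genes called in opposite directions 43, and with regions above the 25th percentile only 190 genes with several regions had 1 sign, since fewer regions and genes entered. With a replicate block the counts were 710 and 741 for the genotype in DMSO, 57 and 306 for ATRA in Cas9 control, 128 and 223 in HK3-null cells, and 171 and 117 (genotype in DMSO), 168 and 226 (ATRA) in RNA, with 187 genes in the same and 21 in opposite directions. Of the named results the block ended the call of the PADI4 region (0.72, adjusted p = 0.052, limma). With the numbers of HK3-null ATRA crossed, which was tried after seeing the data, the HK3-null ATRA counts were 126 and 234. The counts without RNAseq Cas9 control DMSO replicate 1 and on log2(count + 1) for region and RNA together were likewise added after the data were seen. Depth is unknown, so no detection limit can be given for regions with signal near 0.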
